A study of Homo sapiens with 3 samples.

Results

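INS-only beta-like cells were the cells of 3 single-cell RNA libraries in which insulin mRNA was abundant and the mRNAs of glucagon (GCG), somatostatin (SST) and ghrelin (GHRL) were not. A barcode was kept when it held 1000 to 40000 UMIs (unique molecular identifiers, each standing for 1 captured mRNA molecule), at least 500 genes and at most 20% mitochondrial UMIs. It was a member when INS reached 25 per 10000 UMIs of the cell and GCG, SST and GHRL each stayed under 25. By this rule 573 of 25463 kept cells were members: 329 of 8488 in the WT library (3.88%, 95% exact binomial interval 3.48 to 4.31), 116 of 8294 in the HET library (1.40%, 1.16 to 1.68) and 128 of 8681 in the KO library (1.47%, 1.23 to 1.75). The members were chosen by their measured INS, GCG, SST and GHRL, so the levels of these 4 genes and the shares describe the selection and are no finding.

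The study differentiated human embryonic stem cells of the H1 line, an established pluripotent line, toward pancreatic beta cells and profiled them on the 10x Genomics Chromium platform. The WT library came from cells labelled wild type, the HET library from cells with 1 PAX6 allele disrupted (PAX6+/-) and the KO library from cells with both disrupted (PAX6-/-). All 3 share the line and the target cell type. The labels say nothing of where the lesion lies, how many clones were used or on which day of differentiation cells were taken. With 1 library per genotype, the genotype and the library cannot be told apart and no difference below carries a test or a p-value. Intervals are 95% intervals that cover counting error only.

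Pancreatic beta cells make proinsulin, cut it to insulin and C-peptide in dense granules with zinc, and release it when glucose metabolism closes the ATP-sensitive potassium channel and calcium enters. PDX1, NKX6-1, MNX1 and the paired-homeodomain factor PAX6 are among the transcription factors that give beta cells their identity, and PAX6 is known to bind the promoters of islet hormone genes. Genes such as IAPP, SLC30A8, G6PC2, UCN3 and MAFA come on as beta cells mature, and cells made from stem cells often lack part of that set.

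The members were of similar depth in the 3 libraries. Their median was 13499 UMIs and 4175 genes in WT, 14091 UMIs and 4234.5 genes in HET, and 12687 UMIs and 4054 genes in KO. The median mitochondrial share was 6.64% in WT, 9.10% in HET and 8.45% in KO members, against 4.97%, 6.36% and 5.68% of all kept cells, and its part in the results was not tested. No member barcode was shared between libraries, while 16 to 30 kept barcodes were shared by each pair. No doublets were removed in the main selection; 47 WT, 17 HET and 9 KO members were among the 8% of cells with the highest doublet score of their library. All 10 of a list of pan-endocrine genes (CHGA, CHGB, SCG2, SCG3, SCG5, PCSK1N, INSM1, NEUROD1, CPE and SCGN) were detected in 186, 68 and 63 of the WT, HET and KO members, and under 3 of them in 1, 0 and 1.

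Insulin was graded in all 3 libraries, with no gap at the selection limit. INS per 10000 UMIs ran from 25.1 through a median of 94.8 to 628 in WT cells, from 25.4 through 79.5 to 462 in HET cells, and from 25.7 through 56.9 to 315 in KO cells. Cells between 25 and 50 made up 21.6% of WT, 24.1% of HET and 41.4% of KO members, and cells at 200 or more made up 17.6%, 15.5% and 7.81%. Just inside the limit (25 to 30 per 10000) lay 17, 10 and 14 cells with medians of 28.3, 26.6 and 27.4, and just outside it (20 to 25, the other 3 hormones also under the limit) lay 22, 8 and 21 cells with medians of 22.3, 22.5 and 22.5. KO members thus sat lower and closer to the limit than WT members, with ranges that overlapped widely. Of all cells with INS at the limit or above, members were 329 of 857 in WT, 116 of 287 in HET and 128 of 208 in KO. The cells left out passed the GCG limit in 467, 149 and 32 cases, the SST limit in 142, 40 and 6, and the GHRL limit in 5, 17 and 53, some of them more than 1.

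**Figure D1:**
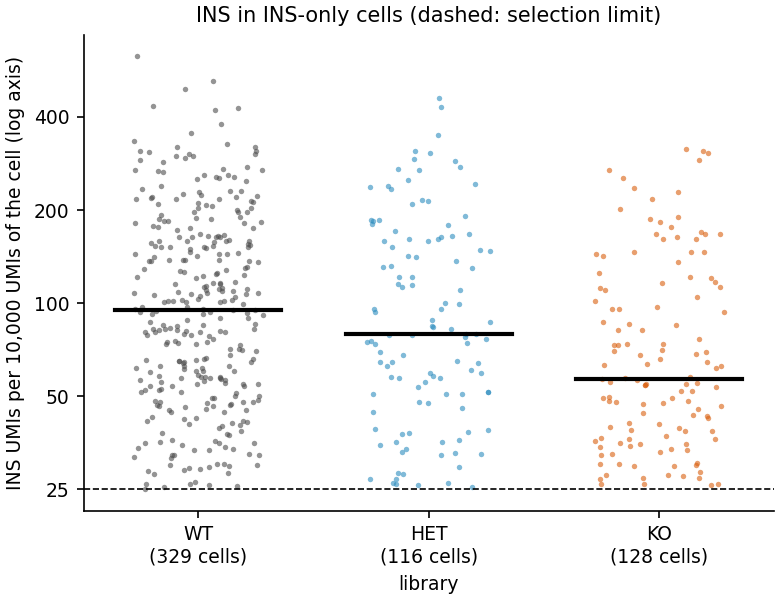
INS UMIs per 10000 UMIs of each INS-only cell (log axis) by library, 1 point per cell, with the library median as a bar and the selection limit of 25 dashed. The medians are 94.8 in WT, 79.5 in HET and 56.9 in KO, and the 3 clouds overlap over most of their range.

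Insulin mRNA was also counted in cells with at most 1 of the 10 pan-endocrine genes, which served as reference cells that should lack insulin. There were 506 such cells in WT, 1226 in HET and 774 in KO, at median depths of 10727.5, 11006.5 and 11291.5 UMIs. An INS UMI was present in 60.9%, 37.3% and 16.5% of them, and 0, 1 and 0 of them reached the limit of 25 per 10000, where a count of 0 allows up to 0.593% in WT and 0.388% in KO.

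Gene levels were compared as UMIs summed over the members of a library, in CPM (counts scaled to a common library total) with TMM factors. Among 3844 genes with at least 50 CPM in KO or WT, 85 were at least 2-fold higher in KO (2.21%) and 170 at least 2-fold lower (4.42%). Among 3749 genes at that level in HET or WT, 26 were higher in HET (0.694%) and 69 lower (1.84%). With plain CPM in place of TMM scaling the KO split was 112 higher and 131 lower, so the lower share of the KO genes past 2-fold moved from 66.7% to 53.9%. Within the gene lists below a gene was counted as higher or lower when it had at least 5 CPM in a library of the pair, differed at least 2-fold and had a counting interval of the ratio that left out 1; by this rule 3.81% of 11878 genes were higher and 6.73% lower in KO, and 2.59% of 11880 were higher and 3.55% lower in HET. Both comparisons share the WT library.

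Transcription factors that define the cells were present in all 3 libraries, and the 3 named markers stood below WT in KO by different amounts. PDX1, a homeodomain activator of the insulin gene, was at 296 CPM in WT, 182 in HET and 112 in KO, which is 1.63-fold lower in HET (1.45 to 1.84) and 2.66-fold lower in KO (2.28 to 3.11). NKX6-1, which holds beta cells apart from alpha cells, was at 161, 135 and 123 CPM, 1.31-fold lower in KO (1.12 to 1.54). MNX1, a homeodomain factor needed for beta cell identity, was at 92.9, 59.6 and 51.3 CPM, 1.81-fold lower in KO (1.43 to 2.31). Of the 3, PDX1 in KO was the 1 difference that passed 2-fold.

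In single cells the same factors were counted after thinning each cell to 3000 UMIs, which left 316 WT, 114 HET and 111 KO members and removed 13, 2 and 17 shallower ones. A PDX1 UMI was found in 50.6% of WT (45.0 to 56.3), 36% of HET (27.2 to 45.5) and 20.7% of KO cells (13.6 to 29.5). A NKX6-1 UMI was found in 28.5%, 25.4% and 27.0%, and a MNX1 UMI in 22.8%, 15.8% and 10.8%. Reference cells gave 25.9%, 17.1% and 11.9% for PDX1, 7.10%, 2.6% and 2.91% for NKX6-1, and 0.222%, 1.3% and 2.36% for MNX1. The PDX1 shares of reference cells were ordered like those of members, so PDX1 UMIs were not particular to endocrine cells here. Without thinning, PDX1, NKX6-1 and MNX1 were all detected in 122 of 329 WT members (37.1%, 31.8 to 42.6), 35 of 116 HET members (30.2%, 22 to 39.4) and 21 of 128 KO members (16.4%, 10.5 to 24). None of the 3 was detected in 56, 17 and 27 members, so part of each library's members carry the label on INS alone.

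PAX6 itself does not check the genotype labels in these counts. Its mRNA stood at 375 CPM in WT, 282 in HET and 434 in KO members, 1.33-fold lower in HET (1.20 to 1.46) and 1.16-fold higher in KO (1.06 to 1.26), and a PAX6 UMI was found in 56.0%, 53.5% and 56.8% of thinned members against under 1% of reference cells. UMIs are read from an end of the transcript, and the lesion may lie outside the counted stretch, so the transcript level says nothing about the protein.

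Among 21 measured beta cell factors of a list of 22, 1 (PDX1) was lower in KO and 0 were higher. Over all genes 6.73% were lower and 3.81% higher in KO. The list median was a log2 ratio of 0.01, beside -0.05 for all genes. In HET 0 of 21 passed in either direction and the median was 0.11. ISL1, a LIM-homeodomain factor of all islet cells, was at 940, 805 and 643 CPM. NKX2-2, a repressor that keeps islet fates apart, was at 97.1, 141 and 175 CPM, and PAX4, a factor of early beta and delta fate, at 126, 129 and 230 CPM. RFX6, upstream of islet differentiation, was at 110, 174 and 191 CPM. NKX2-2, PAX4 and RFX6 were thus above WT in KO by less than 2-fold, while ISL1 was below it. MAFA, the factor most tied to adult beta cells, had 23, 6 and 8 UMIs (4.85, 3.14 and 4.82 CPM), too few for a difference to be detectable.

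The genes of beta cell maturity stood apart from the factors. Of a list of 28, 25 were measured. In KO 16 were lower, 1 was higher and 8 passed in neither direction, where 6.73% of all genes were lower and 3.81% higher. The KO median log2 ratio was -1.44, beside -0.05 for all genes. In HET 5 were lower (IAPP, SLC30A8, HOPX, FFAR1 and RBP4), 1 was higher and 19 passed in neither direction. Among all genes 3.55% were lower and 2.59% higher in HET. The HET median was -0.51, beside -0.05 for all genes. The list was chosen with earlier results of these data known.

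IAPP encodes amylin, which is stored and released with insulin. It had 1446 UMIs in WT (305 CPM), 5 in HET (2.61 CPM) and 0 in KO, where 3 counts would be 1.81 CPM. Against that floor of 3 counts it was at least 169-fold lower in KO, and it was 117-fold lower in HET (49.9 to 360). The WT sum was uneven: 58 of 329 WT members had an IAPP UMI, 37 had 5 or more, and 5 cells held 63.9% of all IAPP UMIs. Reference cells held 2.09, 0.363 and 0.336 CPM of IAPP, and after thinning an IAPP UMI was in 0.665%, 0% and 0% of them, against 13.0% of WT members. In HET 3 of 116 cells had 1 or 2 UMIs each, and 0 of 128 KO cells had any, which allows a share of up to 2.34% of cells with a UMI and does not limit the share that express the gene.

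SLC30A8 encodes the zinc transporter of the insulin granule. It was at 774 CPM in WT, 288 in HET and 16.3 in KO (3670, 551 and 27 UMIs), 2.69-fold lower in HET (2.46 to 2.95) and 47.6-fold lower in KO (32.6 to 72.3). One KO cell held 18 of the 27 UMIs. The WT UMIs were spread: 235 of 329 WT cells had at least 1, against 52 of 116 in HET and 9 of 128 in KO, and the highest WT cell held 1.66% of the sum. The 3 libraries kept that order at each insulin level. SLC30A8 was at 312, 57.9 and 6.24 CPM in members with INS from 25 to under 50. It was at 843, 308 and 5.52 CPM from 50 to under 200, and at 1225, 611 and 146 CPM from 200 up. The range from 200 up held only 10 KO cells. With 1 cell holding 18 of the 27 KO UMIs, the KO levels are no measure of a rise with insulin.

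ERO1B, the pancreatic oxidase that helps form disulfide bonds in proinsulin, followed the same order. It was at 2013, 1374 and 321 CPM, 1.46-fold lower in HET (1.40 to 1.53) and 6.26-fold lower in KO (5.74 to 6.85). Within the INS range of 50 to under 200 it was at 2067, 1342 and 242 CPM. After thinning 88.9% of WT, 71.1% of HET and 39.6% of KO cells had an ERO1B UMI, against 8.23% to 9.31% of reference cells.

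G6PC2, the islet glucose-6-phosphatase, behaved differently in HET. It had 109, 54 and 0 UMIs (23.0, 28.2 and 0 CPM), so it was at least 12.7-fold lower in KO, and the HET ratio of 1.23 had an interval (0.869 to 1.72) that included 1. UCN3, a peptide of mature beta cells, was at 31.2, 22 and 7.24 CPM, 1.42-fold lower in HET (1.00 to 2.05) and 4.32-fold lower in KO (2.40 to 8.54). FFAR1, the fatty acid receptor that amplifies insulin release, had 360, 60 and 2 UMIs (76.0, 31.4 and 1.21 CPM), 2.42-fold lower in HET (1.84 to 3.24) and 63.0-fold lower in KO (17.3 to 522).

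Upstream stretches are shown for 3 genes: INS, which the rule requires in every member, and IAPP and G6PC2, which reached 0 UMIs in KO. The presence of INS in KO members was fixed by the selection, so the 3 genes are no contrast of kept and lost genes. They run from 250 bases before the RefSeq start to the first base of an exon of GENCODE release 29, in the direction of transcription (RefSeq, GRCh38.p14), and capitals mark TAAT or ATTA, the same homeodomain core motif on either strand, with overlapping matches each counted. The INS stretch is chr11:2161342-2161459 on the minus strand, the IAPP stretch chr12:21372652-21372883 on the plus strand (before the more downstream of 2 listed starts), and the G6PC2 stretch chr2:168901041-168901239 on the plus strand. They end 133, 19 and 52 bases before the RefSeq start. The INS and G6PC2 stretches lie 5′ of the annotated gene, and the IAPP stretch lies in an intron of longer IAPP transcripts.
INS: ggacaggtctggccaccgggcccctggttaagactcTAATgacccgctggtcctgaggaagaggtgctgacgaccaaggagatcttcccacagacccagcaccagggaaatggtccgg
IAPP: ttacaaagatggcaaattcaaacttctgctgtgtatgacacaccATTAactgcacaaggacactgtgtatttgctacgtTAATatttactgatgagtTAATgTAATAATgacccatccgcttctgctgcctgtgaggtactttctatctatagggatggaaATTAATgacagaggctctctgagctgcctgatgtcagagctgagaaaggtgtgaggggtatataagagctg
G6PC2: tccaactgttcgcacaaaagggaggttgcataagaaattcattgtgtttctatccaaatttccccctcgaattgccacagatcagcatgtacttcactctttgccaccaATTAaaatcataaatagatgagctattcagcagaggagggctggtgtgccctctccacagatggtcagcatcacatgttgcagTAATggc
The INS stretch holds 1 match in 118 bases, IAPP 7 in 232 bases and G6PC2 2 in 199 bases. The INS stretch stops 133 bases before the start, so matches nearer the start were not counted. The IAPP stretch runs to 19 bases before it. The 3 counts thus cover unlike parts of the promoters and cannot be compared. Of 35116 promoter windows in the same table cut to the same length, 33.5%, 46.4% and 43.4% hold at least 1 match. A match describes the letters only and is no evidence of a bound site.

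Several other maturity genes were lower in KO. KCNK16, a potassium channel of islets, was at 261, 159 and 96.5 CPM, 2.71-fold lower in KO (2.29 to 3.21). HADH, the mitochondrial enzyme whose loss causes insulin oversecretion, was at 146, 101 and 49.5 CPM, 2.95-fold lower in KO (2.35 to 3.76). RBP4, a retinol carrier also used as a delta cell gene, was at 90.1, 35.6 and 43.4 CPM and stood lower in both edited libraries. TRPM5, a calcium-activated cation channel, was at 28.5, 20.4 and 5.43 CPM. HOPX, CASR, KCNJ11, GLP1R and ENTPD3 were lower in KO at WT levels of 8.86 to 22.4 CPM, ENTPD3 with 42 UMIs in WT and 1 in KO.

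Not all of the list moved that way. PCSK1, the convertase that starts proinsulin cleavage, was at 242, 178 and 227 CPM. CHGB, a granule matrix protein, was at 201, 172 and 248 CPM, and SYT4, a calcium sensor linked to maturation, at 70.7, 62.8 and 79.0 CPM. ESRRG, a nuclear receptor of adult beta cells, was at 29.3, 28.2 and 39.8 CPM. PPP1R1A, NPTX2, ABCC8 and KLF9 also passed in neither direction in KO. FXYD2, a subunit of the sodium pump, was the 1 gene called higher, in both edited libraries, from 4 WT UMIs (0.844, 14.6 and 5.43 CPM).

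**Figure D2:**
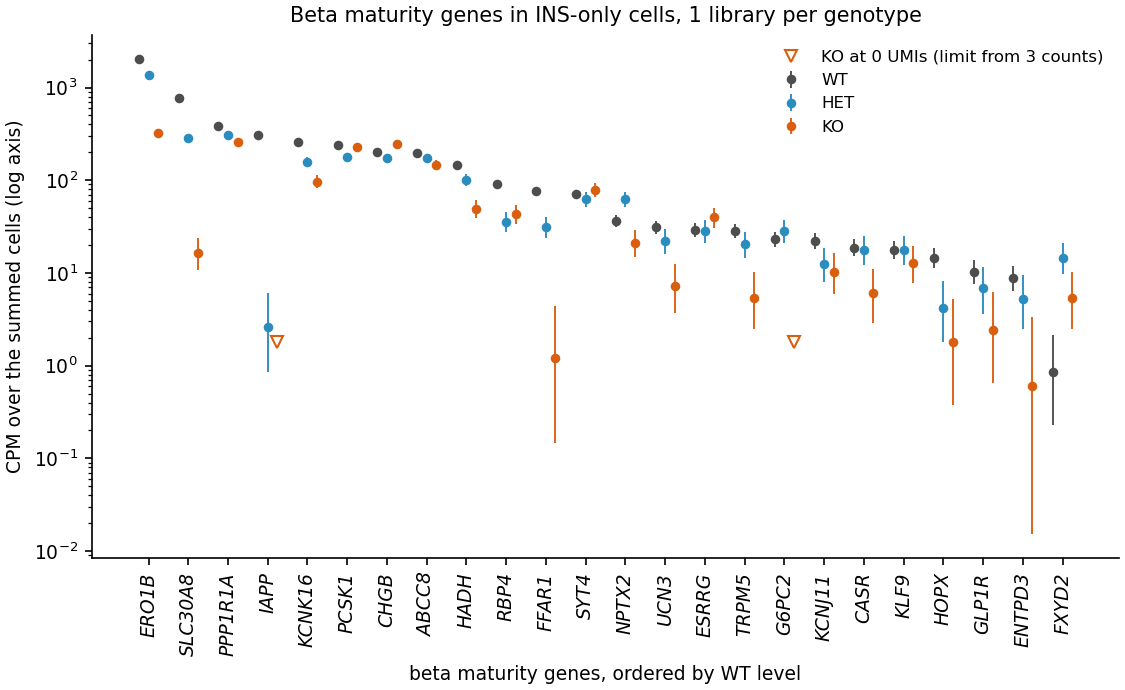
CPM (log axis) of the beta maturity genes reported here in the summed INS-only cells of each library, with 95% Poisson intervals; open triangles mark KO genes at 0 UMIs, drawn at the level 3 counts would give. KO points lie below WT points for most of the genes, and the gap is widest for IAPP, FFAR1 and SLC30A8.

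Glucose sensing and electrical coupling genes overlap with the maturity list, and 20 of 21 were measured. In KO 9 were lower, 2 higher and 9 neither, where 6.73% of all genes were lower and 3.81% higher. The KO median log2 ratio was -0.45. In HET 1 was lower (FFAR1), 2 were higher (SLC2A3 and CACNA1D) and the median was -0.40. The HET shares over all genes were 3.55% lower and 2.59% higher. Of the 9 lower in KO, 8 are also on the maturity list. The other was GIPR, the receptor of the incretin GIP (17.9, 13.6 and 7.24 CPM). The 2 higher in KO were SLC2A1, the widespread glucose transporter (8.86, 17.3 and 20.5 CPM), and CACNA1D, an L-type calcium channel (12.9, 29.8 and 36.2 CPM). ABCC8, the sulfonylurea receptor that pairs with KCNJ11, was at 195, 173 and 146 CPM, 1.34-fold lower in KO. SLC2A2, the glucose transporter typical of rodent beta cells, had 2, 1 and 0 UMIs.

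Of 18 measured granule and processing genes of a list of 19, 5 were lower in KO (SCG3, SCG5, PAM, SLC30A8 and ERO1B), 0 were higher and the median was -0.41. In HET 2 were lower (VGF and SLC30A8) and the median was -0.37. The shares of all genes called lower were 6.73% in KO and 3.55% in HET. SCG5, the chaperone 7B2 of the convertase PCSK2, was at 1585, 913 and 369 CPM, 1.74-fold lower in HET (1.65 to 1.83) and 4.30-fold lower in KO (3.96 to 4.67). SCG3, a granule sorting protein, was at 1222, 724 and 540 CPM, 2.26-fold lower in KO (2.11 to 2.43). PAM, which amidates peptides such as amylin, was at 105, 63.8 and 48.3 CPM, 2.17-fold lower in KO.

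The convertase PCSK2 itself was at 156, 122 and 152 CPM and CPE, the carboxypeptidase that trims proinsulin, at 1580, 1311 and 1109 CPM, neither past 2-fold. CHGA, the granin used as a general endocrine marker, went the other way, at 5452, 5902 and 8942 CPM, 1.64-fold higher in KO (1.61 to 1.67). Of 18 exocytosis genes 1 was lower in KO, SYT7, a calcium sensor of insulin release (141, 96.2 and 68.8 CPM). RAB27A and BAIAP3 were higher, and the median was -0.25. Over all genes 6.73% were lower and 3.81% higher in KO, so 1 lower gene of 18 is near that share. In HET 2 of 17 were lower, SYT1 (34.2, 8.37 and 27.7 CPM) and RAB3A (32.5, 16.2 and 22.3 CPM). The share of all genes called lower in HET was 3.55%.

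**Figure D3:**
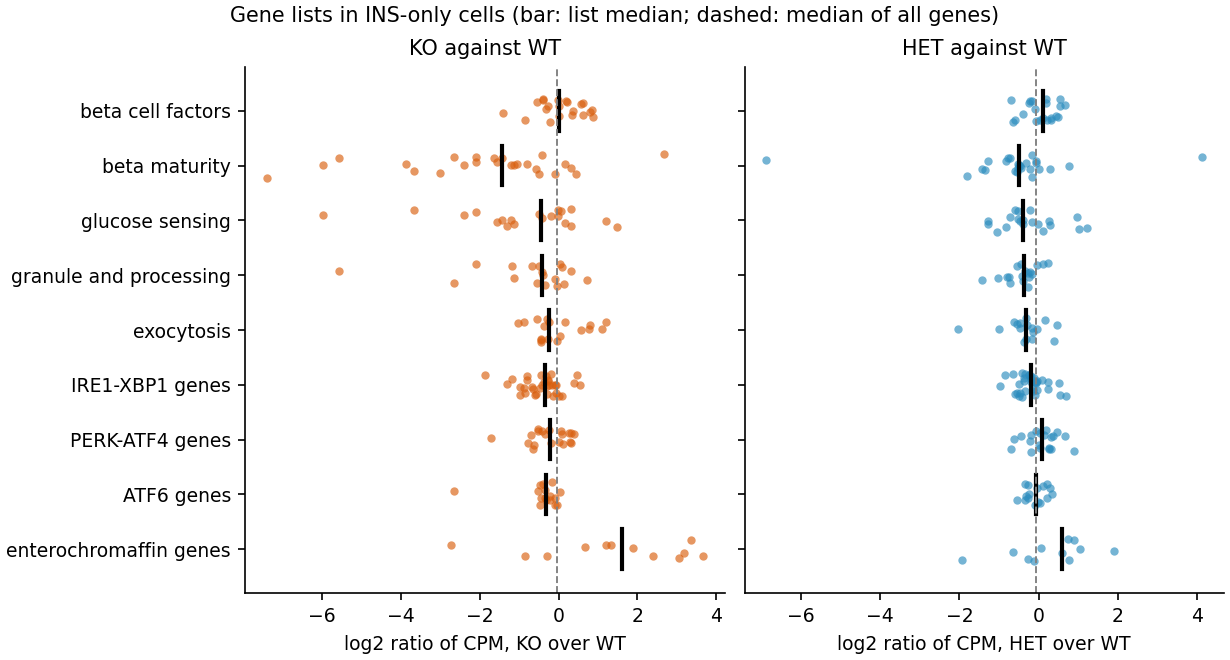
Log2 ratio of CPM in KO over WT (left) and HET over WT (right) for the measured genes of 9 lists, 1 point per gene, with the list median as a bar and the median of all genes dashed. In KO the maturity list has its median at -1.44 and the enterochromaffin list at 1.60, with beta cell factors at 0.01; both panels share the WT library.

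Among peptide hormones that the rule did not use, PPY, PYY and GIP were lower in the edited libraries, while CRH, described further on, was higher. PPY, pancreatic polypeptide, was at 403, 87.9 and 12.1 CPM, 4.58-fold lower in HET (3.91 to 5.40) and 33.4-fold lower in KO (21.6 to 54.8). PYY, its relative from islets and gut, was at 1627, 529 and 230 CPM, and in KO 1 cell held 67.7% of the UMIs. GIP, the incretin peptide, was at 81.0, 24.1 and 5.43 CPM. PPY and GIP UMIs were found after thinning in 13.9% and 16.1% of WT, 6.14% and 5.26% of HET, and 1.80% and 0.901% of KO members. In reference cells the shares for PPY were 1.55%, 1.21% and 0%, and for GIP 0%, 0.173% and 0.277%.

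Hormones limited by the rule are given for scale only: GCG was at 333, 132 and 118 CPM in members and at 286, 78.9 and 3.81 CPM in reference cells, so most of the WT level of GCG was matched by cells that should lack it. GHRL was at 58.5, 104 and 259 CPM in members. GAST, gastrin, which fetal islets make, was at 980, 2662 and 85.6 CPM, 11.4-fold lower in KO (9.68 to 13.6). A few cells carried these sums: 5 WT cells held 72.4% of the WT UMIs and 1 KO cell 47.2% of the KO UMIs, while a GAST UMI was in 29.8% of WT and 20.3% of KO members. In HET 1 cell held 4296 of 5090 UMIs, and with INS at 50 or more per 10000 the HET log2 ratio was -1.75 in place of 1.44.

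KO members carried more serotonin-pathway mRNA. TPH1, the enzyme that starts serotonin synthesis in enterochromaffin cells, was at 63.1, 234 and 800 CPM, 3.70-fold higher in HET (3.19 to 4.30) and 12.7-fold higher in KO (11.2 to 14.4). Of the 12 genes of the enterochromaffin list 8 were higher in KO, 1 was lower and the median log2 ratio was 1.60. In HET 2 of 11 were higher (TPH1 and LMX1A), 1 was lower and the median was 0.59. The shares of all genes called higher were 3.81% in KO and 2.59% in HET. Those called lower were 6.73% and 3.55%. SLC18A1, the vesicular monoamine transporter, was at 3.38, 6.28 and 35.0 CPM, and DDC, which completes serotonin synthesis, at 130, 135 and 301 CPM. FEV, the factor of serotonin neurons and enterochromaffin cells, was at 244, 204 and 387 CPM. SLC6A4, the serotonin transporter, was the 1 lower gene, with 57, 6 and 0 UMIs.

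TPH1 lay in part of the cells. It was detected in 27 of 329 WT (8.21%, 5.48 to 11.7), 20 of 116 HET (17.2%, 10.9 to 25.4) and 59 of 128 KO members (46.1%, 37.2 to 55.1). After thinning the shares were 5.06%, 12.3% and 36%, against 0.443%, 1.21% and 2.64% of reference cells. KO cells with a TPH1 UMI had a median INS of 70.2 per 10000 UMIs and KO cells without one 51.9, while in WT the medians were 80.6 and 96.5. TPH1 was at 412 CPM in KO members with INS from 25 to under 50, 986 from 50 to under 200 and 1390 from 200 up. The range from 200 up held only 10 KO cells. Of the TPH1 UMIs of each library, 5 members held 61.5% in WT, 66.0% in HET and 41.7% in KO. A few cells may thus set these levels, and a relation between TPH1 and INS was not tested. Of the 59 KO cells with TPH1, 29 also had a NKX6-1 UMI, a share close to the 64 of 128 among all KO members. The shares were further apart in HET, at 18 of 20 TPH1 cells beside 64 of 116 members. In WT they were 19 of 27 beside 184 of 329. These counts are without thinning, and a relation between TPH1 and NKX6-1 was not tested.

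Members without a TPH1 UMI, an alternative added after the data were seen, left the maturity genes low. In KO 13 of 26 measured maturity genes were lower and the median was -1.12, and in HET 5 of 25 were lower and the median was -0.32, where 6.58% and 3.73% of all genes were lower in these cells; SLC30A8 stood at 820, 329 and 24.5 CPM, and IAPP at 335, 3.39 and 0 CPM. Removing cells by TPH1, itself on the enterochromaffin list, fixes part of what is left of that list, so its values here are a description: of 8 measured genes 0 were higher in KO and 2 lower, with a median of -0.23, and in HET 0 of 8 were higher, where 3.87% and 2.54% of all genes were higher. The log2 ratios of MME (-0.060) and ADRA2A (-3.38) in KO and of LMX1A (-0.094) in HET were then below 0, and LMX1A in KO was at -0.55 when cells were held to at least 3000 UMIs and 10% mitochondrial UMIs. CHGA was then at 5023, 5010 and 6442 CPM and ISL1 at 990, 977 and 930 CPM. The log2 ratio of ISL1 in KO was -0.55 with all members and -0.09 without TPH1 cells, and that of NKX6-1 -0.39 and -0.70.

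CRH, the corticotropin-releasing peptide, was the gene with the second highest ratio in KO by the rule used for naming genes. It was at 31.0, 171 and 484 CPM, 5.50-fold higher in HET (4.51 to 6.72) and 15.6-fold higher in KO (13.1 to 18.7), and was found after thinning in 4.75% of WT (2.68 to 7.71), 15.8% of HET (9.63 to 23.8) and 27.0% of KO members (19.0 to 36.3), against 0%, 0.520% and 0.693% of reference cells. Of 128 KO members, 43 had a CRH UMI, 59 had a TPH1 UMI and 11 had a UMI of both. Whether CRH and TPH1 lie in separate cells was not tested, and a cell without a UMI of a gene may still express it. The 69 KO members without TPH1 gave 754 CPM of CRH. The CRH sums were uneven: 5 cells held 44.2% of the UMIs in WT, 66.3% in HET and 45.9% in KO.

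**Figure D4:**
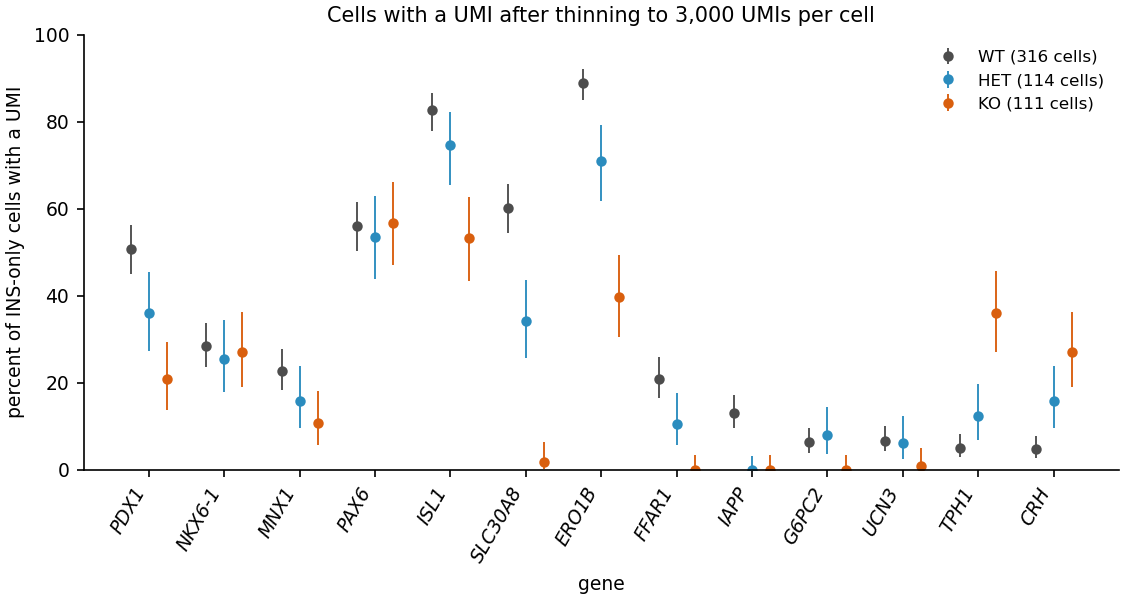
Percent of INS-only cells with a UMI of each gene after thinning to 3000 UMIs per cell, with 95% exact binomial intervals (316 WT, 114 HET and 111 KO cells). SLC30A8 falls from 60.1% in WT to 34.2% in HET and 1.80% in KO, NKX6-1 stays between 25.4% and 28.5%, and TPH1 and CRH are highest in KO.

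Across all genes the 10 with the highest KO ratio, among genes at 50 CPM or more with a UMI in at least 10% of members of the higher library, were GSG1, CRH, TPH1, TWIST1, PRPS2, C6orf141, FOSB, COL5A2, KCTD12 and PCDH9, with log2 ratios from 4.12 to 2.19. GSG1 was at 4.85, 10.5 and 84.4 CPM. KCTD12, an auxiliary subunit of GABA-B receptors, was more widespread, at 138, 329 and 635 CPM with a UMI in 22.8%, 50% and 65.8% of thinned cells. TWIST1, a mesenchymal helix-loop-helix factor, was at 17.3, 37.7 and 140 CPM in only 8.11% of thinned KO cells. Without TPH1 cells the log2 ratio was -0.22 for PRPS2 and 0.21 for COL5A2, against 2.90 and 2.39 with them, and 3.85 for TWIST1.

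The 10 lowest in KO were IAPP, FFAR1, CCBE1, SLC30A8, PPY, NKAIN4, ASB9, FAM13C, GIP and LMO1, from -7.40 to -3.74. CCBE1, a secreted matrix protein, was at 100, 21.4 and 1.81 CPM, and NKAIN4, a protein that binds the sodium pump, at 109, 26.2 and 3.62 CPM. LMO1, a LIM-only cofactor, was at 56.6, 9.41 and 4.22 CPM. ASB9 and FAM13C were at 58.5 and 74.7 CPM in WT, 20.9 and 32.4 in HET, and 2.41 and 3.62 in KO.

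The 10 highest HET ratios were those of FOSB, CRH, TPH1, ACSL1, CD74, GAST, CXCL14, AC109466.1, HNRNPM and VCAN, from 3.62 to 1.37. FOSB, an immediate early gene, was at 12.5, 153 and 74.2 CPM in members and at 28.1, 112 and 81.2 CPM in reference cells, so the same order was seen outside the endocrine cells. HNRNPM, an RNA-binding protein, was at 69.2, 180 and 180 CPM in members and 112, 263 and 267 CPM in reference cells. The 10 lowest in HET were IAPP, LMO1, PLCG2, CCBE1, PPY, NNAT, GNG3, NKAIN4, STMN4 and GIP, from -6.87 to -1.75. PLCG2, a phospholipase, was at 569, 118 and 122 CPM in members and at 752, 169 and 199 CPM in reference cells.

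Genes of the unfolded protein response were counted because the series title names IRE1 alpha, the endoplasmic reticulum sensor encoded by ERN1 that splices XBP1 mRNA. Splicing was not measured by these counts. Of 34 IRE1-XBP1 genes, 29 were below WT in KO and 28 in HET, mostly by little. Of all measured genes, 6416 of 11878 were below WT in KO and 6552 of 11880 in HET. The genes called lower were 3 in KO (ERN1, EDEM2 and KDELR3) and 0 in HET, beside 6.73% and 3.55% of all genes. The medians were -0.35 and -0.20 beside -0.05 and -0.05 for all genes. ERN1 was at 27.2, 15.2 and 12.1 CPM (129, 29 and 20 UMIs), 2.26-fold lower in KO (1.40 to 3.82). XBP1 was at 280, 263 and 209 CPM, 1.34-fold lower in KO (1.19 to 1.51).

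The other arms of the response were counted in the same way. Of 20 PERK-ATF4 genes 1 was lower in KO, TRIB3 (11.8, 7.32 and 3.62 CPM), with a median of -0.21. Of 16 ATF6 genes 15 were below WT in KO and 1 was called lower, ERO1B, with a median of -0.33. Of all measured genes, 6416 of 11878 were below WT in KO and 6.73% were called lower. HSPA5, the chaperone BiP, was at 627, 619 and 536 CPM and DDIT3, the stress factor CHOP, at 60.6, 39.2 and 35.6 CPM. In HET 0 of the genes of either arm passed. Of 14 apoptosis and p53 genes 1 was lower in KO and 0 higher.

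Markers of other cell types were read in the same sums. Of 11 alpha cell genes 4 were higher in KO (IRX2, POU3F4, GC and CRYBA2) and 1 lower. Epsilon cell genes had 3 of 6 higher and 2 lower in KO, and delta cell genes 0 of 7 higher and 2 lower. The shares over all genes were 3.81% higher and 6.73% lower in KO, and 2.59% higher in HET. CRYBA2, a crystallin of early endocrine cells, was at 3683, 4818 and 9041 CPM. Cell cycle genes stood out in HET, with 9 of 11 higher, a summed level of 68.6, 202 and 77.8 CPM and a UMI of MKI67, TOP2A or UBE2C in 12 WT, 24 HET and 6 KO members; 9 of the 24 HET cells were among the top doublet scores. Of 6 measured mesenchymal genes 4 were higher in HET, in 10 of 116 cells by COL3A1, DCN or LUM, 4 of them with a top doublet score, against 1 cell each in WT and KO. The summed level was 45.2, 79.5 and 28.3 CPM for mesenchymal genes and 109, 55.4 and 41.6 for endothelial genes. It was 72.0, 180 and 139 for immune genes (CD74 for the most part) and 44.5, 25.1 and 24.1 for acinar genes. Some other lists had larger sums. Neuronal and autonomic genes were at 4689, 3374 and 3607 CPM, and liver genes at 2808, 2095 and 2234. Progenitor and duct genes were at 2143, 2188 and 1839 CPM, and intestinal genes at 455, 320 and 487. With top doublet scores removed, 3 of 8 measured cell cycle genes and 0 of 3 mesenchymal genes were higher in HET (2.66% of all genes), while 6 of 26 maturity genes were lower in HET (median -0.45, 3.82% of all genes) and 17 of 26 in KO (median -1.40, 7.04% of all genes).

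The maturity genes were also compared in 2 other sets of cells by the same sums. INS-low endocrine cells had INS under the limit and at least 6 of the 10 pan-endocrine genes (1056 WT, 452 HET and 1095 KO cells), and INS and GCG cells passed the limit for both hormones (467, 149 and 32 cells). In INS-low cells 8 of 21 maturity genes were lower in KO (3.19% of all genes) with a median of -0.71, and 6 of 22 in HET (2.3% of all genes) with a median of -0.68. In INS and GCG cells 13 of 22 were lower in KO (6.03% of all genes) with a median of -1.31 and 2 of 22 in HET (3.26% of all genes) with a median of -0.30. The difference between cell sets was not tested, since each has 1 library per genotype.

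By gene, SLC30A8 had a KO log2 ratio of -5.57 in INS-only, -4.77 in INS-low and at least 106-fold lower in INS and GCG cells, where KO had 0 UMIs. ERO1B gave -2.65, -2.02 and -3.87. HADH gave -1.56, -0.34 and -1.44, and ENTPD3 -3.88, -0.10 and 1.74, so the sets were not alike for every gene. IAPP in HET was at 2.61 CPM in INS-only cells and 326 CPM in INS and GCG cells, against 305 and 693 CPM in WT. TPH1 was at 125, 147 and 290 CPM in INS-low cells and at 12.2, 11 and 14.6 CPM in INS and GCG cells, with log2 ratios in KO of 1.21 and 0.26 beside 3.66 in INS-only cells. CRH was higher in KO in all 3 sets, with log2 ratios of 3.96, 3.67 and 4.27.

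**Figure D5:**
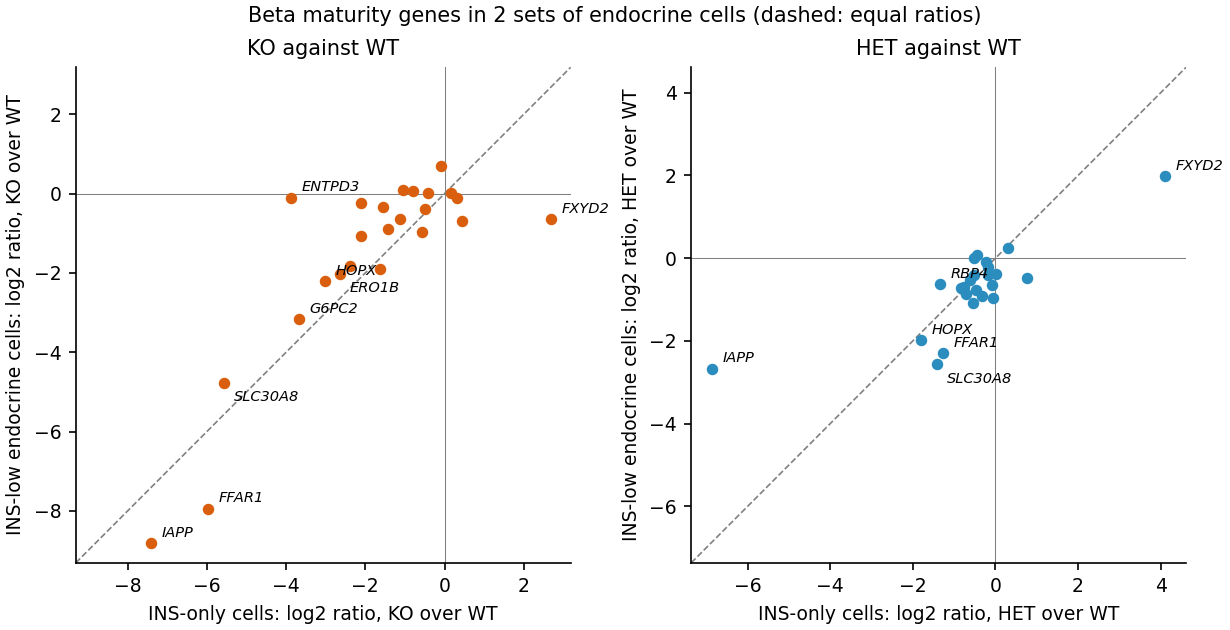
Log2 ratio over WT of the beta maturity genes reported here in INS-only cells (horizontal) and INS-low endocrine cells (vertical), for KO (left) and HET (right), with equal ratios dashed. In KO SLC30A8 lies at -5.57 and -4.77 and ENTPD3 at -3.88 and -0.10; genes at 0 UMIs are drawn at the floor of 3 counts, and both panels share the WT library.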

How the data were processed

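The deposited files hold, per library, UMI counts per gene and barcode which the authors produced, per the file headers, with Cell Ranger 6.1.2. The build is GRCh38 and Seurat is listed as a tool in the submitters' processing notes. Depths were 140068492 UMIs in 9667 barcodes (WT), 136834433 in 9628 (HET) and 145948590 in 9726 (KO). Cells were selected by the rule in the opening; members and gene lists were chosen with earlier results of these data known. Counts were summed over members and scaled with TMM factors (edgeR 4.0.16 in R 4.3.3; used for scaling only). Level intervals are exact Poisson, ratio intervals exact conditional binomial and shares Clopper-Pearson. A library at 0 was set at 3 counts. Doublet scores came from Scrublet in scanpy 1.11.5 and were used in an alternative only. Named genes were those of the rule and the lists, plus the 10 with the largest ratio each way at 50 CPM or more and detected in at least 10% of cells of the higher library; mitochondrial, Y-linked and XIST genes were left out. INS reads shared with the overlapping INS-IGF2 readthrough cannot be told apart. Cell size, scaling, filters, thresholds and weights were varied (closing section). Some members of the lists were counted but are not reported here by name.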

Additional observations from a re-analysis of the deposited data

How the results depend on the processing

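The medians of the beta maturity, beta cell factor, granule and IRE1-XBP1 lists and the counts of genes past 2-fold were recomputed with plain CPM, median-of-ratios size factors, another gene filter, a stricter filter on cells (3000 UMIs or more, mitochondrial share up to 10%), top doublet scores removed, INS at 50 or more, other hormones under 10, at least 3 pan-endocrine genes, each cell or each INS range weighing the same, and members without a TPH1 UMI (added after the data were seen). The maturity median ran from -1.51 to -1.04 in KO and from -0.53 to -0.32 in HET. The factor median ran from -0.05 to 0.15 in KO and from -0.02 to 0.18 in HET. Without TPH1 cells the granule median was -0.32 in KO and -0.34 in HET, and the IRE1-XBP1 median -0.29 and -0.12. With top doublet scores removed these were -0.48 and -0.33, and -0.37 and -0.14. With genes from 10 CPM, 330 genes were higher and 615 lower in KO, and 186 higher and 309 lower in HET, from more genes tested. The share of members was 3.04% in WT, 1.06% in HET and 0.864% in KO with INS at 50 or more, 0.982% in HET and 0.891% in KO under the stricter filter on cells, and 3.38% in WT with other hormones under 10. These shares move by construction of the rule. Of the ratios called 2-fold, sign changed for LMX1A in KO with the stricter cells (-0.55), for PENK (0.31) and GAST (-1.75) in HET with INS at 50 or more, and without TPH1 cells for MME (-0.060), PRPS2 (-0.22) and ADRA2A (-3.38) in KO and LMX1A (-0.094) and PRPS2 (-0.94) in HET; the cause was not tested. Other ratios of named genes left the counting interval of the main ratio: 58 of 189 with the stricter cells, 50 of 183 without TPH1 cells, 48 of 189 with INS at 50 or more, 42 of 190 with INS ranges and 23 of 190 with cells weighing the same, 18 of 190 with other hormones under 10, 18 of 189 without top doublet scores, and 4 and 2 of 190 with plain CPM and median-of-ratios factors. No paired analysis was possible because each genotype has 1 library, and no library could be left out for the same reason. Depth limits genes near the floor, where 3 counts in KO are 1.81 CPM.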
